A study of Mus musculus with 4 samples.

Results

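Immediate early genes are switched on within minutes of a signal because the proteins that drive them are already present, and several of them encode transcription factors. Jun, Junb and Jund pair with Fos-family proteins, or with Atf3 and other basic leucine zipper proteins, to form the dimers known together as AP-1, whereas Egr1 is a zinc finger factor, Ier2 is a nuclear protein and Ier3 a regulator of cell survival. The phosphatase Shp2, encoded by Ptpn11, relays signals from receptor tyrosine kinases to Ras and the kinase ERK, which phosphorylates the factors bound at many of these promoters. In liver, Jun and Fos are known for their induction early in regeneration.

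The 10 genes described here were Fos, Fosb, Fosl2, Jun, Junb, Jund, Egr1, Ier2, Ier3 and Atf3, taken by symbol from the platform annotation, in which 16593 genes are named. There were 9 with a probe, each with 1 probe. Fosl2 was not analysed here because no probe carried its symbol. Of the 9, Fos, Jun, Junb, Jund, Egr1, Ier3 and Atf3 were tested, whereas Fosb and Ier2 were above background on none of the 4 arrays.

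The study measured liver RNA of unfasted mice at an age of 2 months. The 2 knockout samples, Shp2hep-/-, were positive for albumin-Cre, a recombinase whose promoter directs removal of the floxed Shp2 sequence to hepatocytes. The 2 control samples carried the same floxed alleles (Shp2Floxed/Floxed) and are labelled wild type. Macrophages, endothelial cells and other liver cells are not hepatocytes and are also in the tissue, so that fewer cells of a type and less RNA per cell cannot be told apart. The labels give neither sex nor whether each sample is 1 mouse, and p-values therefore measure the spread between these samples, which may be technical.

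Each Illumina array gives a bead intensity per probe and a detection p-value against control beads, and a probe counted as above background at a detection p under 0.05. Between 11542 and 12328 of 25697 probes were above background per array. Ptpn11, read by the probe ILMN_3001598, had log2 intensities of 11.38 and 11.56 in knockout livers and 12.75 and 12.85 in control livers, a difference of −1.33 (SE 0.18, limma adjusted p = 0.0599), with no overlap between the groups. Whether that probe lies in the deleted part was not analysed here. Among hepatocyte markers 10 of 12 with a probe were above background on all arrays. The Alb probe was dim, at 5.75 and 6.05 in knockout livers and 5.90 and 5.58 in control livers, and Fgb was above background on none.

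The promoters of Junb, Fos and Jun are shown because Junb was the 1 called gene, Fos had the next smallest p and Jun is the family's founding gene. Each is the stretch of 250 bases before the annotated start, from RefSeq on GRCm38.p6, read 5′ to 3′ on the gene's strand. Capitals mark matches to the motifs named below.
Junb (chr8:84978749-84978998, minus strand): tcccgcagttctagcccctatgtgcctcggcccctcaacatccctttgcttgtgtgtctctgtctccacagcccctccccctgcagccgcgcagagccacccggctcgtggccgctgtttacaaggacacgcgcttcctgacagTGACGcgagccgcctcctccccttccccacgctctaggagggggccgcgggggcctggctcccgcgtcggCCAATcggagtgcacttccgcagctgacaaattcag
Fos (chr12:85473640-85473889, plus strand): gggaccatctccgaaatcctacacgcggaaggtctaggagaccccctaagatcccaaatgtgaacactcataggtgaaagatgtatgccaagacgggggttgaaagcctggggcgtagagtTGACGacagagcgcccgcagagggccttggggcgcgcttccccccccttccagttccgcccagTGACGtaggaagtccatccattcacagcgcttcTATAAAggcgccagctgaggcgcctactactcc
Jun (chr4:95052223-95052472, minus strand): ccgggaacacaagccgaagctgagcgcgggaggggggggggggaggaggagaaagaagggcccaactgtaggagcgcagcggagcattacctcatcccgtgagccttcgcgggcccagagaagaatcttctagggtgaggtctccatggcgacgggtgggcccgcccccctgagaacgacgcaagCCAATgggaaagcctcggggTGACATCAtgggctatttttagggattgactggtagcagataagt

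Motifs were searched on both strands in the 250 bases before the start of the 8 members in the promoter table (Fos, Fosb, Fosl2, Jun, Junb, Jund, Ier3 and Atf3). The cAMP response element core TGACG, to which CREB and ATF factors bind, was in the windows of Junb (positions −106 to −102), Fos (−129 to −125 and −66 to −62), Fosb and Atf3, 4 of 8, against 17.8% of all 32851 windows in the table. The form TGACNTCA, which covers the AP-1-like site known from the Jun promoter, was in Jun (−45 to −38) and no other member, against 7.49% of all windows; this form can overlap the core, but did not in these windows. CCAAT, bound by NF-Y, was in Junb, Jun and Ier3, against 33.8%, and TATAAA was in Fos alone, against 12.4%. The AP-1 site TGACTCA (4.46% of windows), the ETS site CCGGAA (12%), the STAT form TTCNNNGAA (7.02%) and the CArG box (1.47%), to which serum response factor binds, matched in 0 of the 8 windows. A match describes letters in these windows only, and sites further upstream were not searched.

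Expression of 1 of the 7 tested genes, Junb, rose in knockout liver, against 0.451% of all 9311 rows called higher at a limma adjusted p under 0.05, and 0 of the 7 fell, against 0.344% called lower. In either direction 0.795% of all rows were called. The other 6 did not pass. At an unadjusted p under 0.05 there were 3 of the 7 (Junb, Fos and Egr1), where 16.5% of all rows reached that level. A probe entered the test when it was above background on at least 2 arrays, which Fos met only through the knockout arrays. Of the genes named further below, S100a8, S100a9, Cd79b and Cyr61 met it likewise, and Batf2 and Spry4 only through the control arrays. The counts over tested genes are therefore a description. Those of the lists below are too, and the same shares of all rows apply to them. Differences below are knockout minus control in normalized log2 intensity, with the standard error (SE) of the limma fit and n = 2 per group.

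**Figure D1:**
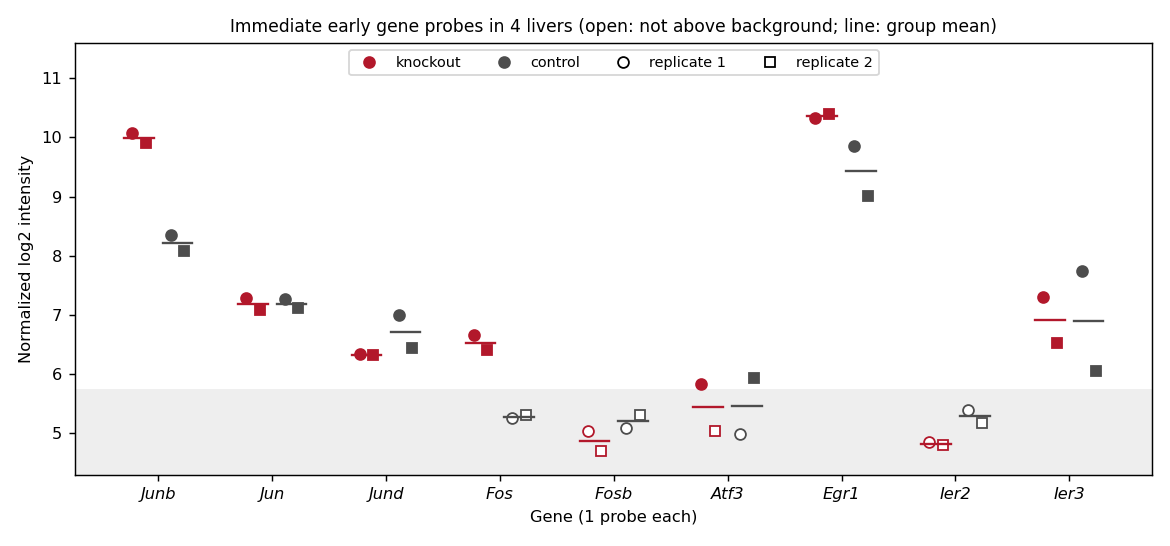
Normalized log2 intensity (y axis) of the 9 measured genes (x axis) on each array, knockout left of control, with circles for replicate 1, squares for replicate 2, a line at the group mean and open symbols where the probe was not above background; the grey band lies below the lowest detected value on any array, 5.74. Junb, Fos and Egr1 lie higher on both knockout arrays than on both control arrays, Jund lies lower, and Jun, Ier3 and Atf3 overlap.

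Junb encodes a Jun-family subunit that is often described as opposing c-Jun in growth control, and lies on chromosome 8 from 84976909 to 84978748. Its scanner intensity was 1321 and 1196 units in knockout livers, against 528 and 459 in control livers. In normalized log2 units these were 10.08 and 9.90 in knockout, against 8.35 and 8.07 in control. Both knockout livers were well above both control livers, and the gap within a group was 0.18 between the knockout livers and 0.27 between the control livers. The difference was 1.78 (SE 0.20, 95% interval 1.28 to 2.28, limma adjusted p = 0.0424), 3.43-fold higher, which ranked 45 by p and 54 by size among rows higher in knockout, of 9311. In the authors' processed table the values were 1119.7 and 983 in knockout, against 336 and 278 in control. The difference was 1.73 from that table with a limma adjusted p of 0.0688, and the call was also lost when every probe was tested on its own (0.0566). It was lost too when any of the 4 arrays was left out, at differences of 1.63 to 1.91. Those fits leave 1 sample in a group and pass few or no rows of any kind, so that the loss is not particular to Junb.

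Jun encodes c-Jun, the founding AP-1 subunit (chromosome 4, 95049036 to 95052222). It had scanner intensities of 367 and 352 units in knockout livers, against 359 and 339 in control livers. The log2 values, 7.29 and 7.09 in knockout against 7.27 and 7.12 in control, overlapped. The difference was 0.00 to 2 decimals with a 95% interval of −0.48 to 0.48, which leaves room for fold differences between 0.716 and 1.39.

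Jund, a Jun-family subunit linked to restraint of cell growth (chromosome 8, 70697739 to 70700616), had intensities of 281 and 292 units in knockout livers, against 332 and 296 in control livers. In log2 units it was 6.33 and 6.32 in knockout, against 7.0 and 6.44 in control. The groups did not overlap, but the control livers were 0.56 apart and both knockout livers lay close below control replicate 2. The difference of −0.39 (SE 0.24, 95% interval −1.01 to 0.22, limma adjusted p = 0.493) did not pass.

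The Junb difference can be set against the other Jun genes within each array. The log2 ratio of the Junb to the Jun probe was 2.79 and 2.81 on the knockout arrays, against 1.08 and 0.96 on the control arrays. For Junb over Jund it was 3.75 and 3.58 on the knockout arrays, against 1.35 and 1.64 on the control arrays. The ratios differed by 1.78 and 2.17 between the groups with no overlap. In an exact two-sided permutation test each gave p = 0.333, the smallest that 2 arrays against 2 allow, and the same after Benjamini-Hochberg adjustment over the 5 ratios computed.

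Fos encodes c-Fos, which binds DNA only with a partner such as a Jun protein (chromosome 12, 85473890 to 85477274). Its scanner intensity was 304 and 297 units in knockout livers, against 230.4 and 247 in control livers. Both knockout arrays were above background and neither control array was, with control detection p-values of 0.343 and 0.268. Normalized log2 values were 6.66 and 6.41 in knockout, against 5.25 and 5.31 in control. Against the lowest detected level of the control arrays, Fos was at least 1.6-fold higher in knockout at the offset of 16 that neqc adds to every intensity, and its limma adjusted p of 0.0737 missed the threshold. With all arrays kept, its adjusted p ran from 0.0548 to 0.0899 over the 10 alternatives in which Fos was tested. The fitted difference of 1.25 was 0.80 with an offset of 50 and 0.63 with normexp at an offset of 50. The last lies under the bound. That bound was computed only at the offset of 16, and whether it holds with neqc at 50 was not analysed here.

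Fosb, a Fos-family subunit (chromosome 7, 19302696 to 19310118), was below background on all arrays, with intensities of 210.1 and 193 units in knockout livers and 221 and 247 in control livers. No fold is given for it.

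Atf3 encodes a stress-induced factor that pairs with Jun proteins or with itself (chromosome 1, 191170296 to 191183333). It had intensities of 252 and 223 units in knockout livers, against 213 and 273 in control livers. It was above background on 1 array of each group, knockout replicate 1 and control replicate 2, so that the groups overlapped fully. The difference was −0.02 (SE 0.41, 95% interval −1.06 to 1.02), near the floor of the measurement.

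Egr1 encodes a zinc finger factor that is a classical output of ERK signalling (chromosome 18, 34861207 to 34864956). Its scanner intensity was 1534 and 1608 units in knockout livers, against 1134 and 681 in control livers. The log2 values were 10.32 and 10.40 in knockout, against 9.86 and 9.0 in control. The knockout livers were 0.07 apart and the control livers 0.86 apart, a gap exceeded by 5.92% of all rows between the controls. The groups did not overlap, and the difference of 0.93 (SE 0.31, 95% interval 0.14 to 1.72, limma adjusted p = 0.247) did not pass. It was 0.50 without control replicate 2 and 1.36 without control replicate 1.

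Ier3 encodes a regulator of cell survival and of ERK signalling (chromosome 17, 35821713 to 35822911). It had intensities of 368 and 306 units in knockout livers, against 418 and 279 in control livers, and its log2 values were 7.30 and 6.53 in knockout, against 7.74 and 6.05 in control. Both control values lay outside both knockout values, 1 above and 1 below. The difference was 0.02 (SE 0.59, 95% interval −1.47 to 1.5). The gap of 1.68 between the control livers was exceeded by 0.322% of all rows, so that the interval for Ier3 was the widest of the 7. Ier2, which encodes a nuclear protein induced with the Fos genes (chromosome 8, 84661331 to 84662852), was below background on all arrays. Its intensities were 196 and 203 units in knockout livers and 238 and 239 in control livers.

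**Figure D2:**
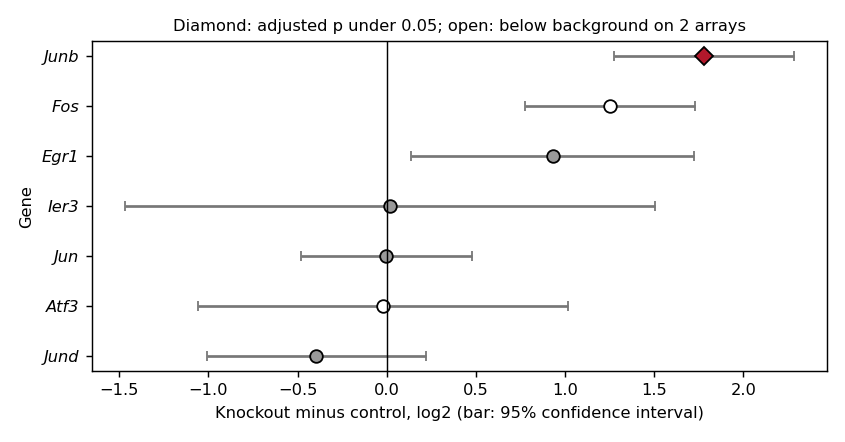
Fitted difference, knockout minus control in log2 units (x axis), of the 7 tested genes (y axis) with its 95% confidence interval; the diamond marks an adjusted p under 0.05 and open circles mark genes below background on 2 of the 4 arrays. The interval of Junb runs from 1.28 to 2.28, while those of Ier3, Jun, Atf3 and Jund cross 0.

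The 7 tested genes differed in direction and size. Their median difference was 0.02, against 0.01 over all rows, and their range was −0.39 to 1.78. With both groups apart, 3 were higher and 1 lower, where 24.8% of all rows were apart with knockout higher and 23.8% with knockout lower, 48.6% in all. The median gap between the 2 control livers was 0.56 for these genes and 0.22 over all rows, whereas between the 2 knockout livers it was 0.21 and 0.25. Control replicate 2 lay below control replicate 1 for Egr1, Ier3, Jund, Junb and Jun, and above it for Fos and Atf3. Markers of macrophages and monocytes, cells that also express immediate early genes, had a summed normalized intensity of 13016 and 12119 on the knockout arrays, against 9096 on control replicate 1 and 5169 on control replicate 2. The sums for red cell, stellate, endothelial, lymphocyte and hepatocyte markers were also lower on control replicate 2 than on control replicate 1. Those for neutrophil and cholangiocyte markers were higher. Each sum takes every gene of its list with a probe, also those below background. Above background on no array were 5 of 8 neutrophil, 6 of 10 lymphocyte and 3 of 4 cholangiocyte genes with a probe. Differences between the control arrays in the sums of those lists may therefore be background. The part of any of these cell types in the differences of the members was not tested.

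**Figure D3:**
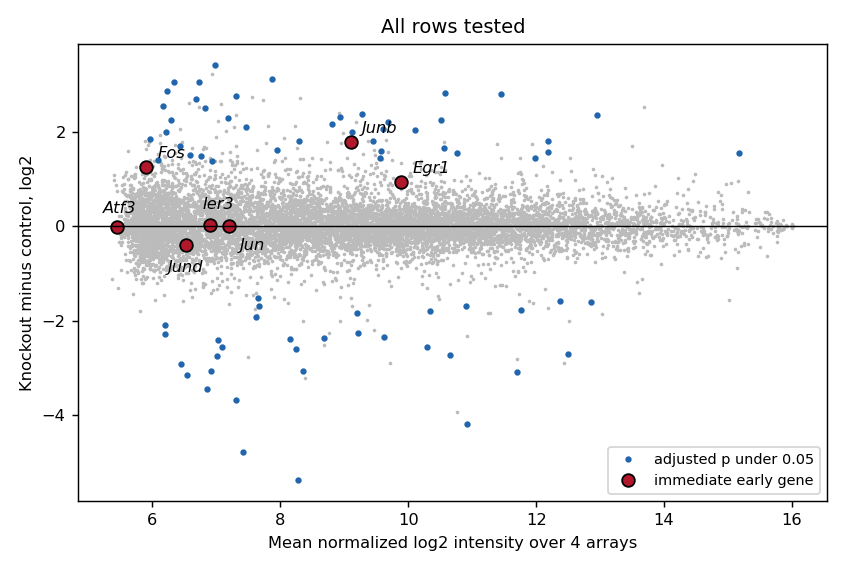
Knockout minus control in log2 units (y axis) against mean normalized log2 intensity (x axis) for all 9311 rows tested; grey points did not pass, blue points had an adjusted p under 0.05 and red circles are the 7 tested immediate early genes. Junb lies among the called rows at 1.78, and Fos and Egr1 lie below it at 1.25 and 0.93.

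Other immediate early genes were described from a list of 40, of which 39 had a probe and 29 were tested. Plk3, a polo-like kinase gene induced by stress and growth factors, rose, and no other gene of the list passed. In this list 1 was called higher and 0 lower, where 0.451% and 0.344% of all rows were, with a median difference of −0.07. Plk3 had log2 values of 12.66 and 12.73 in knockout livers, against 11.32 and 11.21 in control livers. Its difference was 1.43 (SE 0.18, limma adjusted p = 0.0482). The call was lost under 3 of the 11 alternatives that kept all arrays. Like that of Junb, the call was also lost when any array was left out (differences 1.37 to 1.49), where few or no rows passed. Socs3, a feedback inhibitor of cytokine signalling, had 9.73 and 10.36 in knockout, against 8.50 and 8.03 in control, a difference of 1.78 (SE 0.30, adjusted p = 0.0882). The interferon regulatory factor gene Irf1 differed by 0.98 (SE 0.19, adjusted p = 0.116), the survival gene Mcl1 by 0.77 (SE 0.19) and Csrnp1, a nuclear factor gene, by 0.69 (SE 0.19). At an unadjusted p under 0.05 there were 7 genes higher and 3 lower, where 16.5% of all rows reached that level in either direction. The 3 lower, named after their values were seen, were the NF-kB inhibitor gene Nfkbia (−0.76, SE 0.26), the zinc finger factor gene Klf10 (−0.66, SE 0.23) and the MAP kinase phosphatase gene Dusp1 (−0.56, SE 0.22). Cyr61, which encodes a matrix-associated signalling protein, was not above background in control livers. It was at least 1.12-fold higher at an offset of 16 but did not pass (limma adjusted p = 0.165). There were 8 genes of the list above background on no array: Btg2, Egr4, Ier5, Klf4, Myc, Nr4a1, Nr4a3 and Trib1. Groups were apart in 10 genes with knockout higher and in 8 with knockout lower, where 24.8% and 23.8% of all rows were.

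Among other subunits of AP-1 dimers 0 of 5 tested passed in limma, 0 higher and 2 lower at an unadjusted p under 0.05, with a median of 0.04. Atf4, a factor of the integrated stress response that also pairs with AP-1 proteins, had log2 values of 9.09 and 7.66 in knockout livers, against 10.53 and 10.60 in control livers. Its difference was −2.19 (SE 0.47, adjusted p = 0.136), and it was −2.92 without knockout replicate 1 and −1.47 without knockout replicate 2. Batf2 was not above background in knockout livers and was at least 1.15-fold lower. Batf3 differed by 0.24 (SE 0.34). Jdp2, Maf, Maff and Mafk were above background on no array.

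Genes that act above the immediate early promoters showed 0 calls of 14 tested in limma, with 0 higher and 2 lower at an unadjusted p under 0.05 and a median of −0.04. Those with the smallest p were Rps6ka3, a kinase gene below ERK (−0.75, SE 0.18, adjusted p = 0.154), and Map2k6, which encodes an activator of the kinase p38 (−1.34, SE 0.36, adjusted p = 0.179), followed by the p38 gene Mapk14 (−0.34, SE 0.18). With the mean of its probes in place of the brightest, Map2k6 differed by −0.65 (adjusted p = 0.432). Among genes for turnover of AP-1 mRNA and protein 0 of 9 passed, 0 at an unadjusted p under 0.05 in limma, with a median of −0.21. The ubiquitin ligase gene Rfwd2 differed by −0.36 (SE 0.20) and the kinase genes Gsk3a and Gsk3b by −0.72 (SE 0.41) and −0.39 (SE 0.24). Gsk3a differed by −1.31 without control replicate 1 and by −0.14 without control replicate 2.

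Genes known as AP-1 targets had 0 calls of 11 tested in limma and a median of 0.23. There were 3 higher and 0 lower at an unadjusted p under 0.05, where 16.5% of all rows reached that level in either direction. Hmox1, the haem oxygenase gene, had log2 values of 8.45 and 8.30 in knockout livers, against 7.35 and 7.18 in control livers (1.11, SE 0.19, adjusted p = 0.0894). The collagenase gene Mmp13 differed by 0.58 (SE 0.21) and Cd44, an adhesion receptor gene, by 0.65 (SE 0.23). With the mean of its probes in place of the brightest, Cd44 differed by 0.0060 (adjusted p = 0.993). The cytokine gene Ccl2 and the cyclooxygenase gene Ptgs2 were above background on no array, as were Mmp12 and Plaur.

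Feedback genes of ERK are induced by the same kinase as many immediate early genes. Of 10 with a probe 4 were tested, and 0 of the 4 passed in limma. There were 0 higher and 3 lower at an unadjusted p under 0.05, a level that 16.5% of all rows reached in either direction. The median was −1.22. Dusp4, the remaining gene, differed by −0.03 (SE 0.28) with the groups overlapping. The ERK phosphatase gene Dusp6 had log2 values of 10.63 and 10.05 in knockout livers, against 12.22 and 12.11 in control livers (−1.83, SE 0.25, adjusted p = 0.0579), and it passed under 6 of the 11 alternatives that kept all arrays. Spry4 was not above background in knockout livers and entered the test only through the control arrays. It was at least 1.25-fold lower at an offset of 16. Its fitted difference was −1.30, and −2.18 from the deposited processed intensities with values below 0 set to 0 and 16 added. Spred1 differed by −1.13 (SE 0.29). Heat shock genes, which also answer stress, had 0 calls of 8 tested in limma, 1 higher and 0 lower at an unadjusted p under 0.05, and a median of −0.19. Hspb1 differed by 1.22 (SE 0.38), Hspe1 by −0.39 (SE 0.20) and Hsp90aa1 by −0.90 (SE 0.57), the last being −1.58 without control replicate 1 and −0.22 without control replicate 2.

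**Figure D4:**
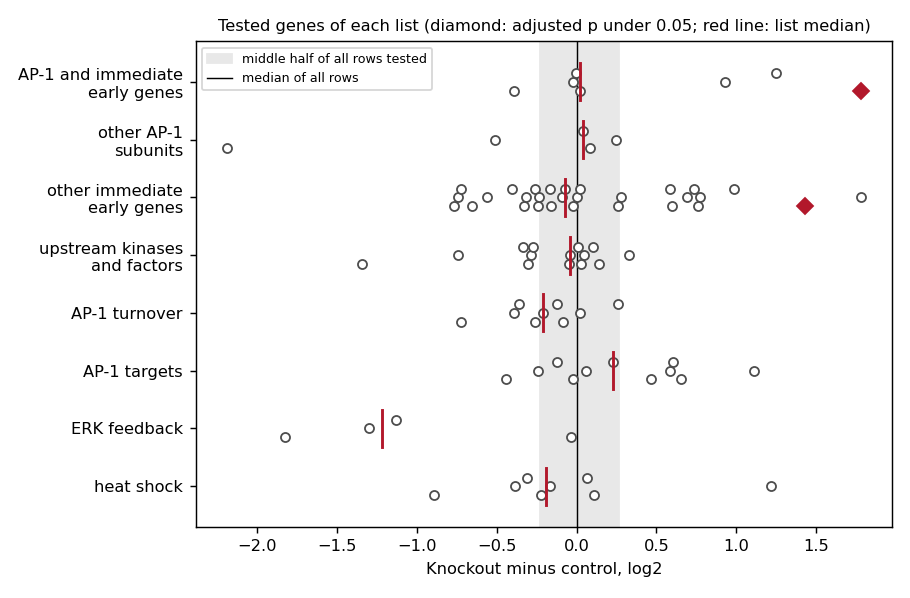
Knockout minus control in log2 units (x axis) for each tested gene of 8 gene lists (y axis); the red line is the list's median, diamonds have an adjusted p under 0.05, the grey band is the middle 50% of all rows and the black line their median. Junb and Plk3 are the 2 diamonds. The ERK feedback genes have the lowest list median, −1.22, over 4 tested genes, of which Spry4 was below background on both knockout arrays.

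Markers of other liver cells were read on the same arrays. In the neutrophil list S100a8, a calprotectin subunit gene, had log2 values of 7.43 and 7.42 in knockout livers, against 5.32 and 5.03 in control livers. It was below background in control livers and entered the test only through the knockout arrays. S100a8 was at least 2.97-fold higher in knockout at an offset of 16 and was called (limma adjusted p = 0.0227). The fitted difference of 2.25 was 1.55 with an offset of 50 and 1.23 with normexp at an offset of 50, both under that bound. It was 3.11 from the deposited processed intensities with values below 0 set to 0 and 16 added. That call was lost from the deposited processed intensities (limma adjusted p = 0.0688). It was also lost when any array was left out (differences 2.17 to 2.39), where few or no rows passed. S100a9, in the same list, was also above background only on the knockout arrays, with 6.59 and 6.23 in knockout livers and 4.96 and 4.68 in control livers. It was at least 1.47-fold higher at an offset of 16 but did not pass (limma adjusted p = 0.0600). Elane, the 1 neutrophil marker above background on all 4 arrays, had 6.10 and 6.04 in knockout livers and 6.09 and 6.49 in control livers, with the groups overlapping. Of the 8 neutrophil genes with a probe, 5 were above background on no array, and the summed intensity of the list was 512 and 492 in knockout, against 285 and 313 in control. Macrophage and monocyte markers had 9 of 10 tested genes above 0 and a median of 0.79. Of them 0 were called and 5 were higher at an unadjusted p under 0.05, where 16.5% of all rows reached that level in either direction. Red cell markers summed to 30612 and 32354 in knockout, against 19034 and 11856 in control. Stellate cell and matrix markers summed to 19501 and 19802 in knockout, against 16753 and 11426 in control. For endothelial markers the sums were 9968 and 12334 in knockout and 12268 and 7913 in control, and for hepatocyte markers 386155 and 408637 in knockout and 406575 and 387760 in control, both overlapping. The lymphocyte list summed to 488 and 454 in knockout and 474 and 419 in control, with 6 of 10 above background on no array, Cd3e and Cd79a among them, and Cd79b, a B cell receptor gene, above background on both knockout arrays and neither control array (6.69 and 6.44 in knockout, 5.44 and 5.55 in control, at least 1.63-fold higher, limma adjusted p = 0.101). The cholangiocyte markers Krt7 and Krt19 were also above background on no array. The part of these cells in the Junb, Fos and Egr1 differences was not tested.

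**Figure D5:**
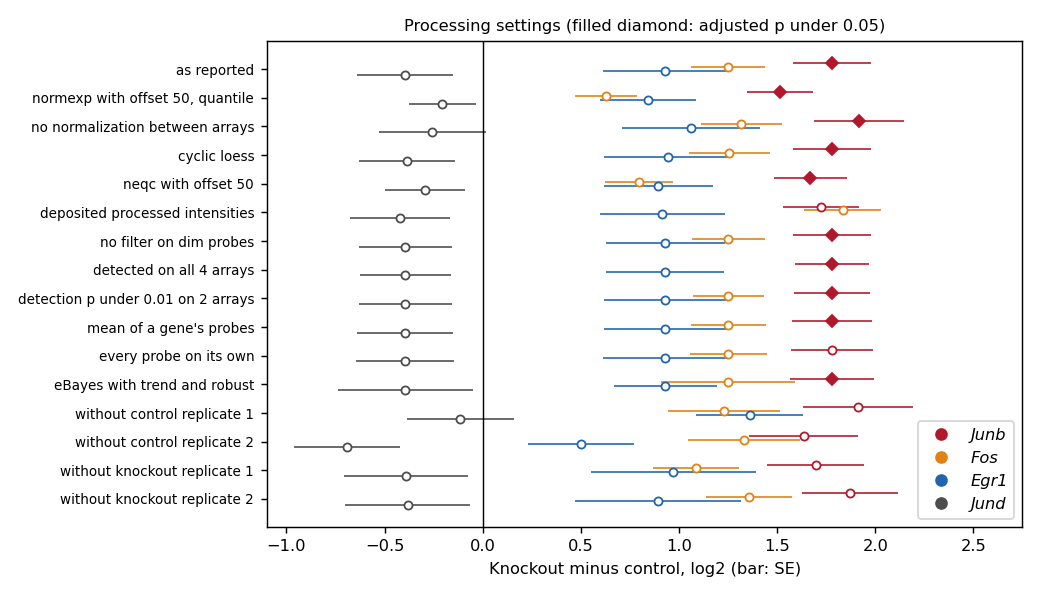
Knockout minus control in log2 units with its SE (x axis) for Junb, Fos, Egr1 and Jund as reported and under the 15 alternative settings (y axis); filled diamonds have an adjusted p under 0.05. Junb passes under 9 of the 11 settings that keep all arrays. It passes under none of the 4 that leave an array out, where few or no rows of any kind pass. Fos, Egr1 and Jund pass under no setting. Fos has no value where detection on all 4 arrays was required.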

How the data were processed

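Liver RNA of 4 samples was read on Illumina arrays. The authors deposited the scanner intensity of each probe, on a linear scale with background not subtracted and arrays scaled to 1 common mean (1186.5, from the values), and a detection p-value, per the file headers. Their deposited processed intensity, partly below 0 and linear, has no stated method and served as an alternative. In it values below 0 were set to 0 and 16 was added before the log2 step. Differences of dim probes from it depend on both choices and are not the authors' own. The intensities were background-corrected, quantile-normalized and put on a log2 scale (R 4.3.3, limma 3.58.1, function neqc, offset 16), a step that uses the deposited detection p-values. Of 25697 probes (4 rows without an identifier left out), 12197 were above background (detection p under 0.05) on at least 2 of 4 arrays. Each gene was read by its brightest such probe, giving 9311 rows: 8579 genes and 732 probes with no symbol. The platform annotation gave 1 symbol to 23978 probes, several to 0 and none to 1719; coordinates, names and promoters came from RefSeq on GRCm38.p6.

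A linear model (limma's lmFit, then eBayes) gave a two-sided p per row for knockout minus control, adjusted after Benjamini-Hochberg over all rows and called at an adjusted p under 0.05. The fit has 2 residual degrees of freedom plus 3.37 from eBayes. A gene below background on both arrays of 1 group has only a bound, "at least N-fold", which holds at the offset used: the bright group's mean against the dim group's mean of, per array, the higher of its own value and the lowest detected value. By their titles the arrays share 1 chip, with each group at neighbouring positions, and the effect of position cannot be told apart from that of genotype. The number of arrays limits the precision, and a bound carries no standard error. Named genes are every member, Ptpn11 and, of each list, up to 6 genes with the smallest p. At most 3 markers of a cell type are named (S100a9, Elane and Cd79b after their values were seen), and undetected genes of pathway lists only for detection. The members and lists were chosen with earlier results of these data known. Ratios were tested by exact permutation (scipy 1.17.1). The 15 alternatives changed background correction, normalization, offset, source, filter, probes, variance model or left out an array.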

Additional observations from a re-analysis of the deposited data

How the results depend on the processing

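With 2 arrays per group, calls near the threshold move with the processing. The 74 rows called were 247 with normexp at an offset of 50 without detection p-values, which changes the background method and the offset of 16 together, 160 with neqc at an offset of 50, 19 from the deposited processed intensities, 46 with every probe on its own and 367 with a trended, robust eBayes; over the 4 fits without an array they ran from 0 to 26, and at 2 against 1 the lone sample is assumed to vary like the other group. The 1 called member, Junb, became 0 with the deposited intensities and with every probe on its own (12197 in place of 9311 rows adjusted over), and 0 to 0 without an array; the other causes were not tested. Differences near 0 changed sign: Atf3 was 0.0056 with normexp at an offset of 50, 0.0296 with no normalization between arrays and 0.0245 with cyclic loess, Ier3 was −0.0323 with that setting and −0.0185 with neqc at an offset of 50, and Jun was 0.19 with no normalization and 0.0393 with cyclic loess. Without an array Atf3 ran from −0.49 to 0.46, Ier3 from −0.83 to 0.86, Jun from −0.10 to 0.10 and Batf3 from −0.15 to 0.64. Leaving out normalization between arrays, on intensities already scaled to 1 common mean, moved the median of all rows to 0.10. Junb, Fos, Egr1 and Jund kept their sign under every alternative that tested them. The Fos difference of 1.25 was 0.80 with neqc at an offset of 50, 0.63 with normexp at that offset and 1.83 from the deposited intensities. That last value rests on deposited Fos control values of 10.8 and 14.1 units, with 16 added before the log2 step. The other immediate early genes had 0 to 4 calls over the alternatives that kept all arrays. No paired analysis was possible because no label links a knockout sample to a control sample. The control labels carry no replicate number, and control replicates 1 and 2 are numbered here by array order. Probes below background limit what can be said of Fosb, Ier2, Atf3 and Fos.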
